A study of Rattus norvegicus with 34 samples.

Results

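Thrombospondins are secreted, calcium-binding glycoproteins of the extracellular matrix that are made in quantity when tissue is injured or remodelled and are sparse in most resting adult tissue. The family has 5 members, the genes Thbs1, Thbs2, Thbs3, Thbs4 and Comp, the last of which encodes cartilage oligomeric matrix protein. Thbs1 and Thbs2 proteins form trimers, carry sites for the receptors CD36 and CD47 and restrain the growth of blood vessels, and Thbs1 protein also activates latent TGF-beta. Thbs3, Thbs4 and COMP proteins form pentamers that bind collagens and other matrix proteins, and in mouse heart muscle Thbs4 protein also acts inside the endoplasmic reticulum together with the stress sensor ATF6.

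The members were looked up by symbol in the array's gene annotation, which named 1 transcript cluster for Thbs1 (10940627) and 1 for Comp (10940446). Each transcript cluster gathers the probes of a gene or transcript, and 29214 of them were measured. Thbs4 (10820434) and Thbs3 (10816725) had no symbol there and were named through the study's own published list of transcripts altered in LV, where Thbs3 stands under the provisional symbol of its gene ID, 681309. So 4 of the 5 members were measured, and Thbs2 was not analysed here. Because that list was chosen on L-MI against sham in LV, no test is given where the L-MI hearts are compared with other samples for Thbs3 and Thbs4. Those values are a description.

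The animals were male Wistar rats studied 2 months after the operation, 1 Affymetrix Rat Gene 1.0 ST array per rat and tissue. The LV arrays came from 6 sham-operated rats, in which the suture around the left coronary artery was not tied, and from rats with a tied artery and a small (S-MI, 6), moderate (M-MI, 6) or large (L-MI, 5) infarct, graded by wall motion on echocardiography. Peripheral blood mononuclear cells (PBMCs), the blood fraction of lymphocytes and monocytes collected on a density gradient, came from 5 rats with L-MI and 6 sham-operated rats. The RNA was of the whole LV in sham-operated rats and of the part without visible scar in infarcted rats, so the pieces of tissue differ between these groups. The description of L-MI replicate 1 speaks of a compensated injury in both tissues, against its title, and it was kept as L-MI. As a check of the tissues, the mean log2 signal of 13 cardiomyocyte markers lay between 12.49 and 12.98 in the 23 LV arrays and between 6.30 and 6.46 in the 11 PBMC arrays, and that of 10 T, B and NK cell markers between 11.15 and 11.39 in PBMCs and between 6.36 and 6.77 in LV. Values are log2 signals with no call of presence, and beyond this check levels are not compared between genes or between tissues.

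In LV of rats with L-MI, Thbs1 and Comp were higher than in sham-operated rats. Thbs3 and Thbs4 were higher too, but the list that named them held only transcripts altered in this comparison. Both members that could be tested, Thbs1 and Comp, rose, and 3.22% of all transcript clusters were called in this comparison, 2.08% as higher and 1.14% as lower. Calls in LV needed an adjusted p in limma of at most 0.05 together with a 1.3-fold difference or more. In RNA of a whole tissue, more cells of a type and more RNA per cell cannot be told apart.

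Thbs4, a pentameric thrombospondin of tendon, muscle and heart, had the widest difference of the 4 members. Its log2 signals in LV of L-MI were 9.31, 7.58, 9.23, 8.54 and 9.41, against a lowest value of 5.84, a median of 6.13 and a highest value of 6.60 in sham. All 5 L-MI hearts lay above all 18 others, and L-MI replicate 2 was the lowest of the 5. The share of all transcript clusters that separate in this way was not counted, for this member or those below. The means were 8.81 ± 0.77 in L-MI (SD, n = 5) and 6.19 ± 0.26 in sham (SD, n = 6), a difference of 2.63 on the log2 scale or 6.18-fold. The L-MI hearts spanned 1.83 on the log2 scale and the 18 others together 0.79.

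Comp, whose protein links collagen fibrils in cartilage and tendon, had signals of 7.19, 7.52, 6.73, 7.21 and 8.19 in LV of L-MI. In sham the lowest signal was 6.25, the median 6.40 and the highest 6.57. The 5 L-MI hearts again lay above all 18 others, with replicate 5 the highest and replicate 3 only 0.15 above the highest heart without a large infarct. Comp averaged 7.37 ± 0.54 in L-MI (SD, n = 5) and 6.39 ± 0.12 in sham (SD, n = 6). The difference was 0.97 ± 0.15 (SE) on the log2 scale, or 1.96-fold, with an adjusted p of 0.000131 in limma. The exact two-sided permutation p of this single difference was 0.00433, the smallest that 5 hearts against 6 can give. The SE rests on 1 spread estimated over all LV arrays, and Comp varied most in L-MI, so it may be too narrow here. With only the 2 groups fitted the adjusted p in limma was 0.00916. Without L-MI replicate 5 the difference was 0.77.

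Thbs1, the activator of latent TGF-beta, had signals of 9.41, 8.92, 9.11, 10.05 and 9.80 in LV of L-MI. In sham the lowest was 7.81, the median 8.03 and the highest 8.31, so that the groups did not overlap. It averaged 9.46 ± 0.47 in L-MI (SD, n = 5) and 8.04 ± 0.19 in sham (SD, n = 6), which gave a difference of 1.42 ± 0.22 (SE) or 2.67-fold and an adjusted p of 0.000189 in limma. Unlike Comp, Thbs1 reached the L-MI range in a heart with a smaller infarct. Of the 5 L-MI hearts 3 lay above all 18 others, whose highest value was 9.31 in S-MI replicate 6. Thbs3 and Thbs4 are left out of this contrast because of how they were named.

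Thbs3, a pentameric member that takes part in skeletal growth in mouse, had the narrowest difference. Its signals in LV of L-MI were 7.01, 6.74, 6.82, 6.79 and 6.95, against a lowest of 6.23, a median of 6.40 and a highest of 6.49 in sham. All 5 lay above all 18 other hearts, the highest of which had 6.62. Thbs3 averaged 6.86 ± 0.11 in L-MI (SD, n = 5) and 6.40 ± 0.10 in sham (SD, n = 6), a difference of 0.47 on the log2 scale or 1.38-fold.

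**Figure D1:**
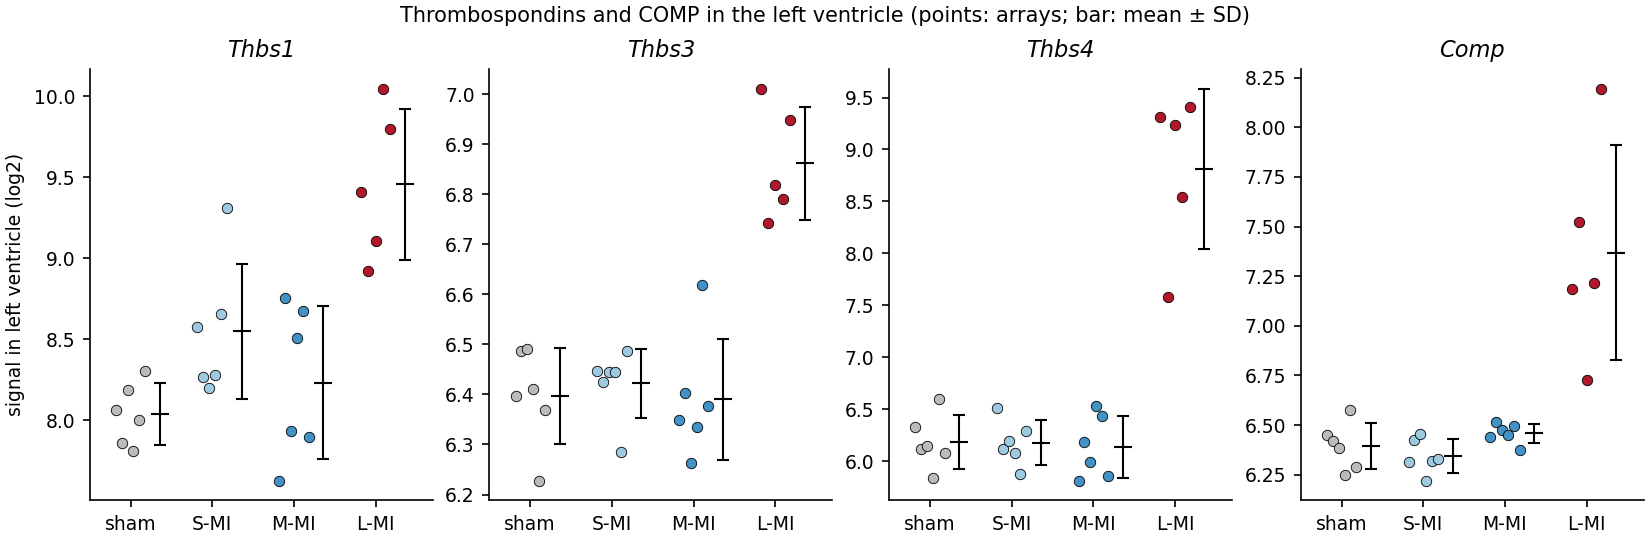
Log2 signals of Thbs1, Thbs3, Thbs4 and Comp (vertical axes, each with its own range) in LV of sham, S-MI, M-MI and L-MI rats, with 1 point per array and the mean ± SD beside each group. The L-MI hearts lie above every other heart for Thbs3, Thbs4 and Comp, whereas S-MI replicate 6 reaches 9.31 for Thbs1, above 2 of the L-MI hearts. For Thbs3 and Thbs4 this is not apart from their naming, and the share of all transcript clusters that separate in this way was not counted.

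The stretch in front of 3 of the members' genes is shown, to let their promoter sequences be set side by side. Of the 5 members 4 have an entry in the RefSeq promoter table (build GRCr8). The 250 bases before the start are printed for the 3 members with the wider differences, in the direction of the gene, with matches to the first 6 of the motifs named below in capitals. They are Thbs4 at chr2:25760346-25760595 on the minus strand, Comp at chr16:19089549-19089798 on the minus strand and Thbs1 at chr3:125510000-125510249 on the plus strand.
Thbs4: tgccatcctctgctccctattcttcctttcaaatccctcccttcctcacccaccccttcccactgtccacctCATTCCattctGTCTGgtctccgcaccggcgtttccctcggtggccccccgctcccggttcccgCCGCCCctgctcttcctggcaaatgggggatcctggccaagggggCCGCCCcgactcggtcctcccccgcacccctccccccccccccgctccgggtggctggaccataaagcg
Comp: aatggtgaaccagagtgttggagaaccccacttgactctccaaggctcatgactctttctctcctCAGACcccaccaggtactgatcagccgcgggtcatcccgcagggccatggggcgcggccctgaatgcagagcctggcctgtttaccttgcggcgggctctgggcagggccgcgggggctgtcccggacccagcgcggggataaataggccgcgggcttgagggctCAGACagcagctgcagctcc
Thbs1: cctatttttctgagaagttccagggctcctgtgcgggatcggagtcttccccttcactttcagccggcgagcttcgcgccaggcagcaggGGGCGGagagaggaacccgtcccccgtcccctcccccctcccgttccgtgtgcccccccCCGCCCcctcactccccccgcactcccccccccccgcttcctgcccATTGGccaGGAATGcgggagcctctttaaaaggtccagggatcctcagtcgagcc

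Each of 8 motifs was searched on both strands of the same 250 bases in all 33469 promoters of the table, and none of the matches in the members overlapped another. The GC box, GGGCGG, stood 2 times each in the Thbs1 and Thbs4 windows and in 30.5% of all promoters. The TEAD site, GGAATG, stood 1 time each in Thbs1 and Thbs4 and in 12.1% of all promoters. The SMAD element, CAGAC, stood 2 times in Comp, 1 time in Thbs4 and in 42.9% of all promoters. The CCAAT box, CCAAT, stood 1 time in Thbs1 and in 34% of all promoters. The TATA box TATAAA, in 12.9% of all promoters, the AP-1 site TGANTCA, in 6.34%, the CArG box, in 1.5%, and the endoplasmic reticulum stress element, in 0.0657%, had no match in the 3 windows shown. The 3 windows held 67.6% G and C in Thbs4, 64.8% in Comp and 67.6% in Thbs1, and the median of all promoters was 51.2%. So the windows shared no searched motif between all 3, and a match is only a run of letters.

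In the hearts with smaller infarcts no member passed the test against sham, in S-MI or in M-MI, and neither did any transcript cluster (0% in both comparisons). At an unadjusted p under 0.05 there were 1850 transcript clusters for S-MI and 2053 for M-MI, and the ordinary contrast without moderation and limma-trend gave 0 calls in both groups as well. These comparisons use the same sham hearts as the list that named Thbs3 and Thbs4. Their spread is estimated over all LV arrays, the L-MI hearts included. The tests of these members are thus not fully apart from their naming.

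Thbs4 averaged 6.19 ± 0.26 in sham, 6.18 ± 0.22 in S-MI, 6.13 ± 0.30 in M-MI (SD, n = 6 each) and 8.81 ± 0.77 in L-MI (SD, n = 5). The 3 groups other than L-MI overlapped almost entirely, with lowest values of 5.84, 5.88 and 5.81 and highest values of 6.60, 6.51 and 6.53 in sham, S-MI and M-MI. The difference from sham was -0.01 in S-MI (95% interval -0.48 to 0.46) and -0.05 in M-MI (95% interval -0.52 to 0.42). These intervals rest on 1 spread estimated over all LV arrays, and Thbs4 varied most in L-MI, which widens them. A change of up to about these bounds could thus have been missed in this model.

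Comp averaged 6.39 ± 0.12 in sham, 6.34 ± 0.09 in S-MI and 6.46 ± 0.05 in M-MI (SD, n = 6 each). The difference from sham was -0.05 in S-MI (95% interval -0.34 to 0.24) and 0.06 in M-MI (95% interval -0.23 to 0.36). Comp also varied most in L-MI (SD 0.54), which widens its intervals in the same way. Thbs3 averaged 6.40 ± 0.10 in sham, 6.42 ± 0.07 in S-MI and 6.39 ± 0.12 in M-MI. Its differences were 0.03 in S-MI (95% interval -0.10 to 0.15) and -0.01 in M-MI (95% interval -0.13 to 0.12), the narrowest intervals of the 4 members.

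Thbs1 was the member with the most spread among the smaller infarcts. In S-MI its lowest signal was 8.20, its median 8.43 and its highest 9.31, and in M-MI the lowest was 7.63, the median 8.22 and the highest 8.75. Of the 6 S-MI hearts 3 lay above all sham hearts, and of the 6 M-MI hearts 3 lay above and 1 below them. In S-MI the difference from sham was 0.51 ± 0.21 (SE), with an unadjusted p of 0.0253 and an adjusted p of 0.723 in limma, and an exact two-sided permutation p of 0.013. It did not pass over all transcript clusters, and it was 0.36 without S-MI replicate 6. In M-MI the difference was 0.19 ± 0.21 (SE) with an adjusted p of 0.833 in limma, and it was 0.09 without M-MI replicate 2 and 0.32 without M-MI replicate 1.

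The order of Thbs1 means in LV was thus sham, M-MI, S-MI and L-MI, which is not the order of infarct size, and the neighbours sham and M-MI, like M-MI and S-MI, overlapped. For Comp, Thbs3 and Thbs4 the means of the 3 lower groups lay at most 0.115 apart, and only L-MI stood apart. For Thbs3 and Thbs4 the place of L-MI is not apart from their naming, so only Comp shows this freely. Whether these members were above background in the 3 lower groups is not shown by the values.

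The L-MI hearts were also set directly against the other infarcted hearts, where all tissue was scar-free LV of operated rats with a tied artery. Both tested members rose in both comparisons. Of all transcript clusters 2.68% were called against M-MI, 1.99% as higher, and 2.48% against S-MI, 1.57% as higher. These comparisons share the L-MI arrays with that against sham. Comp was higher in L-MI than in M-MI by 0.91 ± 0.15 (SE, adjusted p = 0.000303 in limma) and than in S-MI by 1.02 ± 0.15 (SE, adjusted p = 0.00013 in limma). Thbs1 was higher in L-MI than in M-MI by 1.22 ± 0.22 (SE, adjusted p = 0.000976 in limma) and than in S-MI by 0.91 ± 0.22 (SE, adjusted p = 0.0133 in limma). The call of Thbs1 against S-MI was lost without L-MI replicate 4, the highest of the L-MI hearts, at a difference of 0.76 and an adjusted p of 0.0547. Thbs4 was higher by 2.68 than in M-MI and by 2.64 than in S-MI, and Thbs3 by 0.47 and 0.44, values that were close to those against sham.

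**Figure D2:**
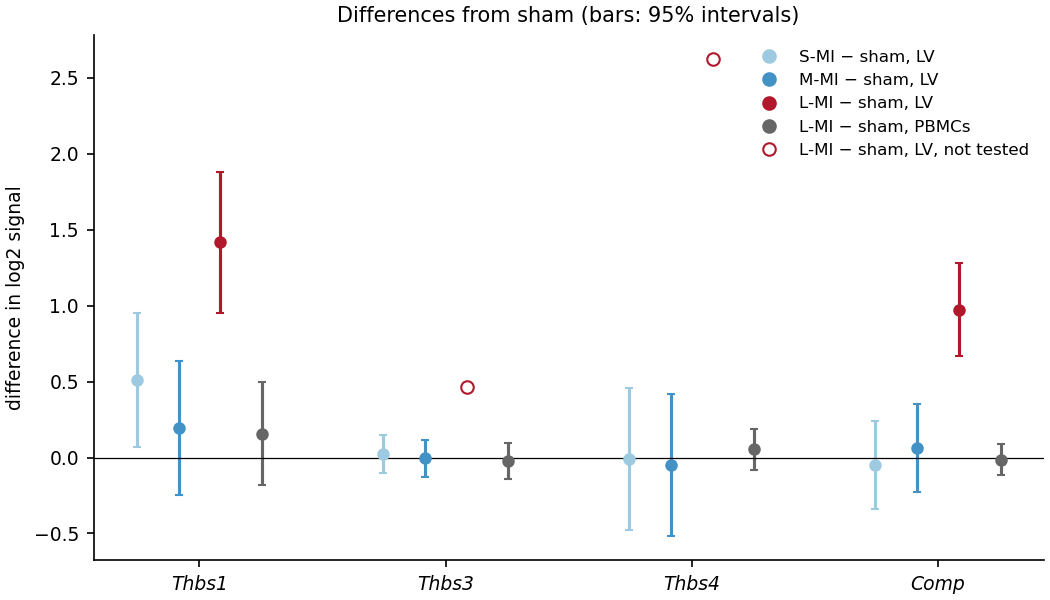
Differences in log2 signal from sham (vertical axis) of Thbs1, Thbs3, Thbs4 and Comp for S-MI, M-MI and L-MI in LV and for L-MI in PBMCs, with 95% intervals, and with open points and no interval where a member was named through a list chosen on that comparison. Of the differences drawn with an interval, those of L-MI in LV are 1.42 for Thbs1 and 0.97 for Comp, and all others lie between -0.05 and 0.51.

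In PBMCs no member was called between L-MI and sham, where 0.924% of all transcript clusters were called. In PBMCs a call needed a 1.2-fold difference or more and a p of at most 0.05 without adjustment. After adjustment over all transcript clusters none passed, and 1100 had an unadjusted p under 0.05.

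Thbs1 signals in PBMCs of L-MI were 13.13, 12.45, 12.54, 12.40 and 13.02. In PBMCs of sham the lowest was 12.08, the median 12.66 and the highest 12.74. Replicates 1 and 5 of L-MI lay above all sham samples and the other 3 within their range. The means were 12.71 ± 0.34 in L-MI (SD, n = 5) and 12.55 ± 0.25 in sham (SD, n = 6), a difference of 0.16 ± 0.16 (SE), with an unadjusted p of 0.33 in limma and an exact two-sided permutation p of 0.398. Without L-MI replicate 1, whose labels disagree, it was 0.05.

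Thbs4 averaged 6.14 ± 0.11 in PBMCs of L-MI (SD, n = 5) and 6.09 ± 0.09 in sham (SD, n = 6), with a 95% interval of the difference of -0.08 to 0.19. Comp averaged 6.83 ± 0.05 in L-MI and 6.85 ± 0.06 in sham, with an interval of -0.12 to 0.09. Thbs3 averaged 6.06 ± 0.05 in L-MI and 6.08 ± 0.09 in sham, with an interval of -0.14 to 0.10. The values do not say whether these 3 members were above background in PBMCs.

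**Figure D3:**
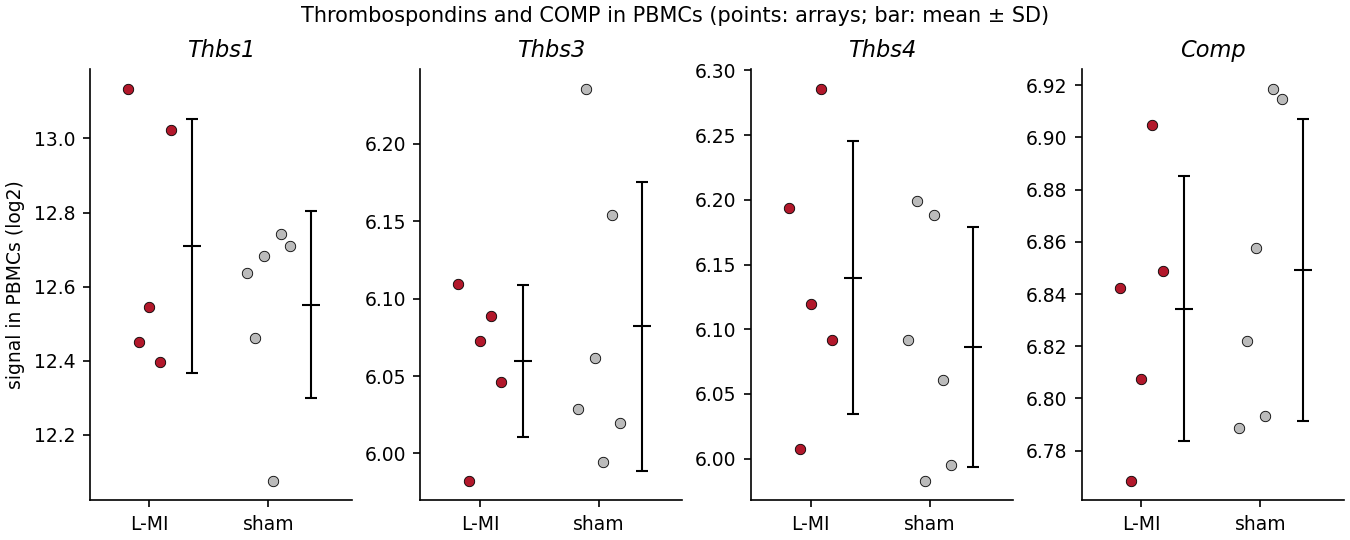
Log2 signals of Thbs1, Thbs3, Thbs4 and Comp (vertical axes, each with its own range) in PBMCs of L-MI and sham rats, with 1 point per array and the mean ± SD beside each group. The groups overlap for every member, and Thbs1 lies between 12.08 and 13.13 in all 11 arrays.

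The effect of a large infarct was then compared between tissues in 1 model of 22 arrays, in which 2.55% of all transcript clusters differed, 1.39% with a positive difference of LV minus PBMCs. The difference from sham was larger in LV than in PBMCs for Thbs1 by 1.26 ± 0.25 (SE, adjusted p = 0.00644 in limma) and for Comp by 0.99 ± 0.21 (SE, adjusted p = 0.0109 in limma). Comp had a difference of -0.01 in PBMCs, where it is not shown to be above background, so its term nearly restates that in LV. For Thbs4 and Thbs3 the corresponding differences were 2.57 and 0.49, with no test. The labels do not say which arrays share a rat, and all were taken as independent.

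Platelets carry Thbs1 protein in their granules and are a common companion of mononuclear cells on a density gradient. In PBMCs, Thbs1 moved with the mean of the 7 measured of 15 platelet and megakaryocyte markers from sample to sample. Over the 11 arrays, with each group centred on its own mean, Pearson's r was 0.96 (permutation p = 0.00028, adjusted p = 0.00672) and Spearman's rho 0.95 (permutation p = 0.00109, adjusted p = 0.0187), the highest of 24 relations between members and marker lists that were computed. Without the 2 arrays farthest from the median of Thbs1, r was 0.94. The marker mean lay between 11.21 and 12.03 in L-MI and between 10.87 and 11.73 in sham, and no marker of the list was called between the groups. Pf4, the platelet chemokine, had 13.08 ± 0.24 in L-MI (SD, n = 5) and 13.17 ± 0.24 in sham (SD, n = 6). The 3 other members had r between -0.45 and 0.49 with the same list, with adjusted permutation p values from 0.354 to 0.708. In PBMCs the members were related only to this list and to the macrophage and monocyte markers. Whether Thbs1 moved with markers of other cells there was not tested.

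**Figure D4:**
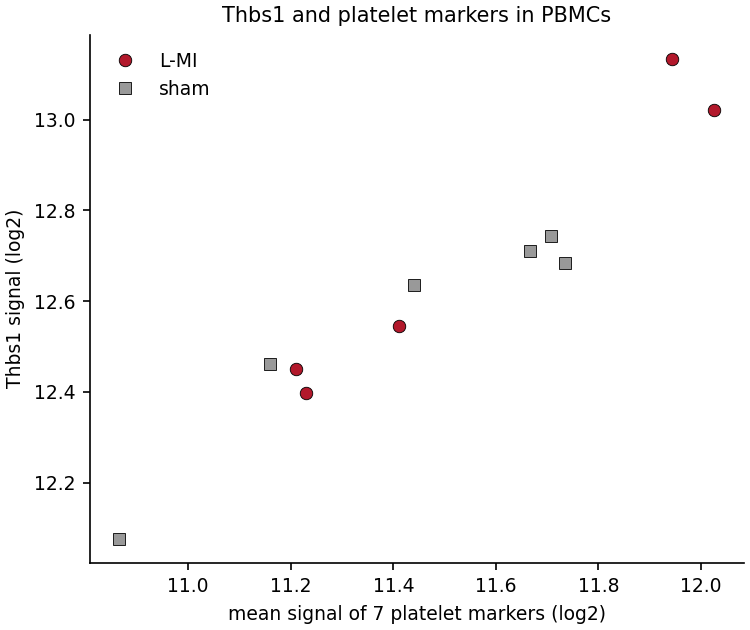
Thbs1 log2 signal (vertical axis) against the mean log2 signal of 7 platelet and megakaryocyte markers (horizontal axis) in the PBMC arrays of 5 L-MI and 6 sham rats. Thbs1 is lowest in sham replicate 4, where the markers average 10.87, and highest in L-MI replicates 5 and 1, where they average 12.03 and 11.94.

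Genes that bind, release or cleave thrombospondins were counted from 5 lists in LV of L-MI against sham. Over these lists 89 genes were measured, and 18 of them were called, all as higher. Lists use only genes that the array's annotation names. The median log2 difference of all transcript clusters was -0.01, and 3.22% of them were called, 2.08% as higher.

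Of the 21 measured matrix binding partners 10 rose and none fell, with a median difference of 0.37. Fn1 (fibronectin) rose by 1.56 ± 0.16 (SE), and Col12a1, a collagen of fibril surfaces, rose by 1.52 ± 0.16 (SE). Col14a1, a related collagen, rose by 0.97, and Vcan, the proteoglycan versican, rose by 1.15. Their adjusted p values in limma ran from 2.35e-06 to 3.51e-05. Fibrillar collagens I and III, which thrombospondins and COMP bind, are among the 10.

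Of the 8 measured TGF-beta ligands and latency proteins 4 rose and none fell, with a median difference of 0.37. Ltbp2, a fibril protein of the same family that does not itself bind latent TGF-beta, rose by 1.40 ± 0.13 (SE). Tgfb2 rose by 1.001, Ltbp3, which holds latent TGF-beta in the matrix, rose by 0.48, and Tgfb1 rose by 0.40, all with adjusted p values in limma of at most 0.000543.

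Of the 19 measured receptors and cell surface partners 3 rose and none fell, with a median difference of 0.25. Lrp1, the receptor that takes thrombospondins up into cells, rose by 0.67 ± 0.08 (SE, adjusted p = 1.45e-05 in limma), and Sdc2, a syndecan, rose by 0.44. The third, named after its values were seen, was Itgam, an integrin chain of myeloid cells, at 0.49. Itgb5 had 0.29 and Sirpa, a partner of CD47, had 0.31, both under the fold threshold with adjusted p values in limma of 0.000368 and 0.000698. The receptors that Thbs1 protein is best known for were chosen after their values were seen: Cd36 had a difference of -0.19 (adjusted p = 0.198 in limma) and Cd47 one of 0.09 (adjusted p = 0.392 in limma).

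Of the 16 proteases that cleave thrombospondins or COMP 1 rose, the matrix metalloproteinase Mmp2, by 0.48 ± 0.07 (SE, adjusted p = 5.8e-05 in limma). The median of the list was 0.07. Adamts7, which cleaves COMP, had -0.23 (adjusted p = 0.0621 in limma), and Adamts5 had 0.30. Mmp13 had 0.93 ± 0.36 (SE, adjusted p = 0.113 in limma) and was not called. Its signals were low and uneven, 4.64 ± 1.37 in L-MI and 3.705 ± 0.14 in sham (SD). By quantitative PCR the study reported Mmp13 as higher in L-MI, with sham hearts close to the limit of detection.

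Of the 25 measured genes of the ATF6 and chaperone list none was called in either direction, with differences between -0.24 and 0.27 and a median of 0.09. With no fold threshold 3 would have passed, Herpud1 (-0.24), a factor of protein degradation at the endoplasmic reticulum, the disulfide isomerase Pdia6 (0.19) and Sdf2l1 (0.27). Hspa5 and Atf6, the chaperone and the sensor themselves, were chosen after their values were seen and had 0.03 and 0.12, with adjusted p values in limma of 0.857 and 0.137. In S-MI and M-MI no gene of any of the 5 lists was called, and likewise none in PBMCs of L-MI.

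Several cell type markers differed in the same hearts, where 2.08% of all transcript clusters were called as higher and 1.14% as lower. Some of these markers stand in the lists above as well, among them Col1a1, Col3a1 and Itgam. The marker counts are thus not separate from those. Of the 13 macrophage and monocyte markers 12 rose, with a median difference of 0.78, and their mean lay between 8.35 and 8.90 in L-MI and between 7.83 and 8.13 in sham. Mrc1, Csf1r, Cd68 and Lyz2 rose by 0.84, 0.75, 0.90 and 0.99. The marker that did not rise, Ccr2, was chosen after its values were seen. It averaged 8.28 in L-MI and 8.59 in sham and was not called. Of the 13 fibroblast and myofibroblast markers 7 rose, with a mean between 8.996 and 9.56 in L-MI and between 8.49 and 8.64 in sham. Postn, the matricellular protein periostin, averaged 8.81 in L-MI and 5.81 in sham (adjusted p = 1.05e-07 in limma), and Thy1, Col1a1 and Col3a1 rose by 0.88, 1.196 and 0.57.

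Of the 10 measured tendon and cartilage markers 5 rose, with a mean between 6.38 and 6.99 in L-MI and between 6.18 and 6.35 in sham. Fmod (fibromodulin) rose by 1.12 and Cilp, a matrix protein named for the cartilage intermediate layer, rose by 1.23, whereas Scx, the transcription factor of tendon cells, had -0.30 (adjusted p = 0.00976 in limma), under the fold threshold. Chad, Acan and Hapln1, named after their values were seen, rose as well, but their L-MI and sham hearts overlapped. Acan had 5.92 in L-MI replicate 3 and 7.70 in replicate 5, against a mean of 6.08 in sham. Of 10 smooth muscle and pericyte markers 2 rose, with a mean between 9.74 and 9.98 in L-MI and between 9.59 and 9.72 in sham. None of the 8 endothelial markers was called, and their differences ran from -0.18 to -0.03. Of the 7 measured platelet markers 1 rose in LV, P2ry12, which microglia and some macrophages also express, and Pf4 had 0.19 (adjusted p = 0.523 in limma). Of the 4 measured erythroid markers 1 fell, Slc4a1, the anion exchanger of red cells, which averaged 7.38 in L-MI and 7.89 in sham (adjusted p = 0.0181 in limma), and the median of that list was -0.26. Of the 10 T, B and NK cell markers 1 rose, Cd4, which monocytes and macrophages of the rat also carry, by 0.76 (adjusted p = 3.84e-05 in limma). Of the 13 cardiomyocyte markers 1 rose, Nppa, the natriuretic peptide of stretched heart muscle, by 1.89 (adjusted p = 0.000135 in limma), and the median of that list was -0.02. The part of these cell types in the differences of the members was not tested.

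**Figure D5:**
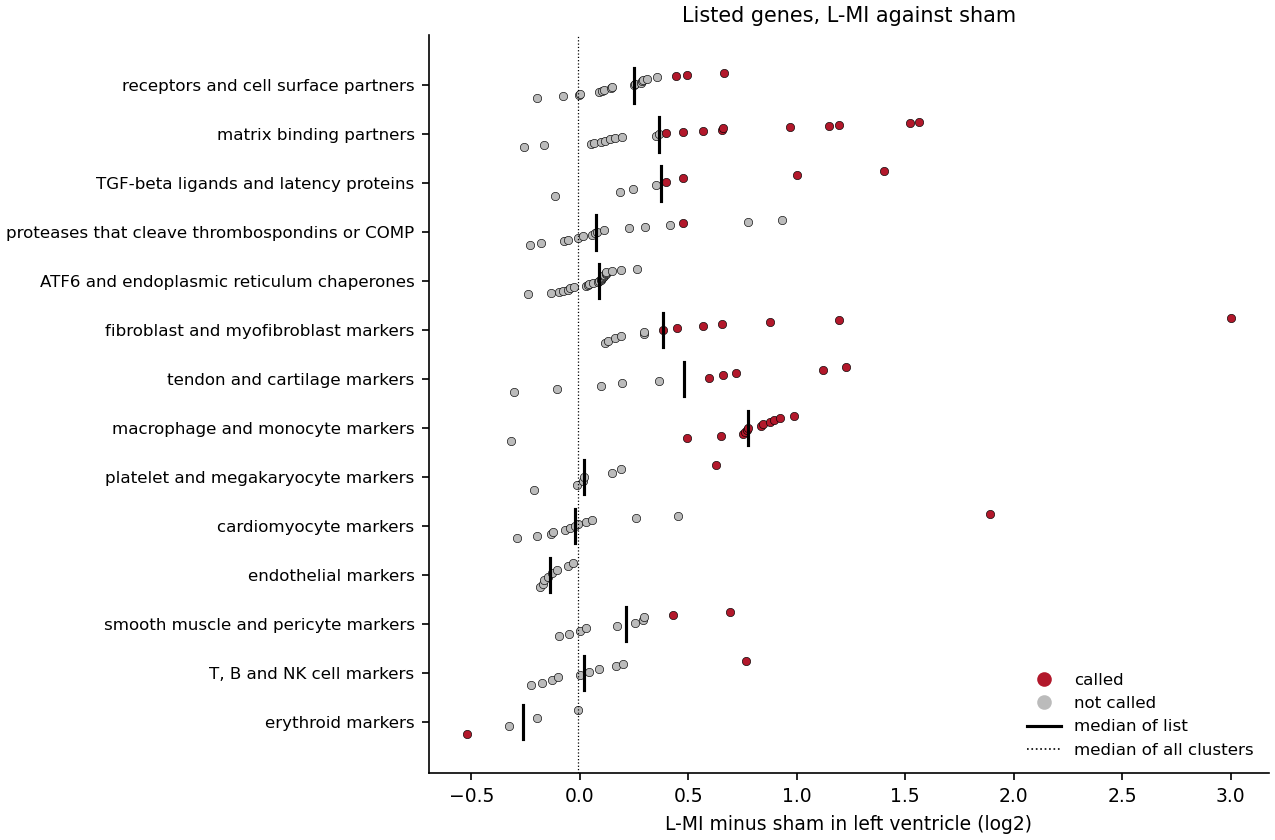
Differences in log2 signal between L-MI and sham in LV (horizontal axis) for the measured genes of 5 lists around thrombospondins and of 9 marker lists (rows), with called genes in red, a bar at the median of each list and a dotted line at the median of all transcript clusters. The macrophage markers have the highest median of these lists, 0.78, and the point farthest to the right is Postn.

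Within the groups, no pair of members passed a permutation test for varying together. Over 6 pairs of members in the 23 LV arrays, with each group centred on its own mean, Pearson's r lay between 0.08 and 0.41 and Spearman's rho between -0.02 and 0.37. Without the L-MI hearts r in LV lay between -0.13 for Thbs3 with Comp and 0.54 for Thbs4 with Comp, with no test. Over the same 6 pairs in the 11 PBMC arrays r lay between -0.35 and 0.46 and rho between -0.32 and 0.44. The smallest adjusted permutation p over the 12 pairs was 0.611 for r and 0.501 for rho. Among the L-MI hearts, replicate 5 was highest for Comp and Thbs4, replicate 4 for Thbs1 and replicate 1 for Thbs3.

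Of the 16 relations with marker lists in LV, 2 passed after adjustment over the 24 computed. Thbs3 moved with the fibroblast and myofibroblast markers (r = 0.62, permutation p = 0.00368, adjusted p = 0.0294, and rho = 0.65, permutation p = 0.00359, adjusted p = 0.0287), and r was 0.60 without the 2 farthest arrays. Thbs3 was named through a list chosen on the L-MI and sham hearts used here, so its test is not fully apart from its naming. Thbs1 moved with the smooth muscle and pericyte markers (r = 0.69, permutation p = 0.00088, adjusted p = 0.0106, and rho = 0.68, permutation p = 0.00156, adjusted p = 0.0187), and r was 0.68 without the 2 farthest arrays. Comp had an r of 0.82 with the tendon and cartilage markers, but its adjusted permutation p was 0.0971, its rho was 0.48 with an adjusted permutation p of 0.179, and r was 0.28 without the 2 farthest arrays, so the relation rests on those hearts.

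The genes most like each member were taken as the 3 of 15308 named transcript clusters with the highest r of such centred values over the 23 LV arrays, as a description. For Thbs4 they were Postn at 0.91, Pkd1, the gene of polycystin, at 0.84 and Map1b, a microtubule protein, at 0.84. Postn had signals of 9.31, 7.80, 9.10, 8.43 and 9.41 in LV of L-MI, which is the same order of the 5 hearts as for Thbs4. Without the L-MI hearts, over 18 arrays, r with Postn was 0.79.

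For Comp the most alike were Ibsp, which encodes bone sialoprotein, at 0.92, Acan, the cartilage proteoglycan aggrecan, at 0.91 and Panx3, a channel protein of bone and cartilage cells, at 0.91. These rested on a few hearts. Ibsp had 5.06, 6.38, 4.85, 5.85 and 8.56 in LV of L-MI, against a mean of 4.91 in sham, so that L-MI replicate 5 was the highest for Ibsp as it was for Comp, and replicate 3 the lowest for both. Without the 2 arrays farthest from the median of Comp the 3 values of r were 0.61, 0.58 and 0.55, and over the 18 hearts without a large infarct they were 0.35, 0.44 and 0.40.

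For Thbs3 the most alike were Prelp, a leucine-rich matrix proteoglycan, at 0.86, Cd34, a surface protein of vascular and stromal cells, at 0.81 and Pmp22, a membrane protein of myelin, at 0.80. For Thbs1 they were Actb, the cytoplasmic actin, at 0.85, Sfxn3, a mitochondrial carrier, at 0.82 and Actn4, an actin cross-linker, at 0.82. Prelp kept an r of 0.88 and Actb one of 0.83 over the 18 hearts without a large infarct. Actb averaged 13.07 in L-MI and 12.93 in sham.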

How the data were processed

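LV and PBMC RNA was hybridized to 34 Affymetrix Rat Gene 1.0 ST arrays. Per the labels and methods, the authors made the deposited log2 signals by RMA in Partek software (background correction, quantile normalization, 1 summary per transcript cluster). Versions are not given in the sources used here. No source states the base of the logarithm, and 2 is assumed. Median signals of single arrays were 6.52 to 6.61 for LV and 6.97 to 7.01 for PBMCs, which points to separate normalization of the tissues. Precision is limited by the number of arrays.

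Of 29214 transcript clusters 15310 carry 1 symbol, 323 several and 13579 none. Each was fitted in limma 3.58.1 (R 4.3.3), over 23 LV arrays in 1 model, 11 PBMC arrays, or 22 arrays of both tissues, with Benjamini-Hochberg adjustment over all of them. Groups and thresholds follow the study's methods. The fits were tested on simulated data. Python 3.11.15 with numpy 2.4.6, scipy 1.17.1, pandas 2.3.3 and matplotlib 3.10.9 gave exact permutations of single differences, 100000 permutations within groups for correlations, and the figures. The members and lists were chosen with earlier results of these data known. The genes named are all members, up to 4 per list with the smallest p in L-MI against sham in LV, and the 3 most like each member, with exceptions marked. Alternatives were an ordinary contrast, limma-trend, array weights, leaving out dim transcript clusters (30%), centring on medians, a second quantile normalization, other thresholds, fits of the 2 groups alone, a replicate block and each array left out.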

Additional observations from a re-analysis of the deposited data

Results flagged for a closer look

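Thbs3 in LV of S-MI had 1 array apart from the rest of its group, replicate 5 at 6.29, which lay 0.14 below the next, or 0.688 of the range of the group. Of 24 groups of arrays looked at (4 members in 6 groups) this was the single case, and chance gives such a gap in about 5% of groups.

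The effect of a large infarct differed between tissues for both members tested, by the interaction term in limma. It was larger in LV than in PBMCs by 1.26 on the log2 scale for Thbs1 and by 0.99 for Comp. Comp is not shown to be above background in PBMCs, so its term nearly restates the difference in LV. The platelet markers that moved with Thbs1 in PBMCs and the macrophage, fibroblast and cartilage markers that were higher in LV of L-MI are given with these members' values, and their part in the difference was not tested.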

How the results depend on the processing

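The calls of Thbs1 and Comp in LV of L-MI against sham, M-MI and S-MI and in the comparison of tissues, and the absence of member calls in S-MI, M-MI and PBMCs, held under every alternative fit run. With arrays left out in turn, 1 count changed: without L-MI replicate 4 the tested members called against S-MI ranged down to 1, from 2. Without L-MI replicate 1, whose labels disagree, Thbs1 and Comp still passed against sham, at 1.43 and 1.02. Of the listed genes 32 passed without a fold threshold, against 18. Members near 0 changed sign with arrays left out, none past the threshold: against sham, Thbs3 ranged from -0.052 to 0.020 in M-MI, from -0.0087 to 0.052 in S-MI and from -0.04 to 0.0083 in PBMCs of L-MI, Thbs4 from -0.13 to 0.032 in M-MI and from -0.078 to 0.075 in S-MI, and Comp from -0.032 to 0.0018 in PBMCs of L-MI. Deviations of same-numbered arrays had r between -0.263 and -0.001 for L-MI and sham hearts and between -0.111 and 0.261 for S-MI and sham hearts, where 2 of 6 pairs were over 0.1 and 3 of 6 arrays matched their own number best. For sham LV and sham PBMCs r lay between 0.003 and 0.139, again with 3 of 6 matched best. In no pair of groups was every r over 0.1, so the numbers were taken only as names. With the replicate number as a block Thbs1 in LV of L-MI was 1.47 above sham and no member changed its call, while the transcript clusters called in PBMCs numbered 457 against 270. They numbered 475 without L-MI replicate 3, 1100 without a fold threshold and 0 with adjusted p. Without a fold threshold 2769 were called in LV of L-MI against sham, where 941 had been, 2196 against M-MI, where 784 had been, and 2258 against S-MI, where 725 had been. Without sham replicate 1, 1 transcript cluster was called in M-MI. The mean over several transcript clusters of a member gave no value, since each has 1.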
